A study of Mus musculus with 4 samples.

Results

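The nuclear genes for the subunits of oxidative phosphorylation were followed in RNA-seq libraries of Ddx6 knockout and wild-type mouse embryos. They were taken by symbol: names starting with Ndufa, Ndufb, Ndufc, Ndufs, Ndufv, Uqc, Atp5 or Cox4 to Cox8, together with Sdha, Sdhb, Sdhc, Sdhd, Cyc1 and Cycs, without the Ndufaf genes and the pseudogenes. Of 24421 genes measured, 90 met this rule, and 85 of them had at least 10 reads in at least 1 library. Of these subunit genes 37 belonged to complex I by symbol, 4 to complex II, 12 to complex III, 14 to complex IV and 17 to complex V, and Cycs encodes cytochrome c. All embryos were of the ICR strain and whole embryos were extracted. Wild-type embryos gave 1 library of age E7.5 (E7.5 wild type) and 1 of age E8.5 (E8.5 wild type), where the number is the day of gestation, and Ddx6 -/- embryos of age E8.5 gave 2 (KO1 and KO2). The knockout allele lacks an exon of Ddx6, which encodes an RNA helicase of mRNA decay and translational repression, and was made by crossing a floxed line to a CAG-Cre line, whose Cre acts throughout the body. By the study's text, KO1 pooled a pre-head-fold embryo and a head-fold embryo and KO2 pooled pre-head-fold embryos alone, so the KO embryos were delayed and the libraries differ in stage as well as in genotype. Stage, genotype and library cannot be told apart where a WT stage has 1 library, and where the groups are tested at each stage the p-values measure only the spread between the KO pools.

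Oxidative phosphorylation is the respiration of mitochondria. Complexes I and II pass electrons from NADH and succinate to ubiquinone, complex III passes them on to cytochrome c, and complex IV hands them to oxygen. Complexes I, III and IV pump protons as they do so, and complex V, the ATP synthase, uses the returning protons to make ATP. Most subunits are encoded in the nucleus and a few in mitochondrial DNA, and the latter were not analysed here. Early mouse embryos are known to rely strongly on glycolysis around gastrulation, and respiration is known to gain weight as the heart and circulation form.

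Libraries held between 8198402 (KO1) and 12562640 (E8.5 wild type) reads. Ddx6 had 2943 reads in E7.5 wild type, 5715 in E8.5 wild type, 706 in KO1 and 929 in KO2, a mean log2 change against E8.5 wild type of -2.54 ± 0.10 (SD, n = 2). Levels below are CPM, reads per gene scaled to a common library total, with TMM (trimmed mean of M-values) factors, and changes are differences of log2 CPM with a prior count of 2. The study's criterion, a change above 1 or below -1 on the log2 scale, is called the fold criterion. It carries no p-value. Counting intervals are exact 95% binomial (Clopper-Pearson) intervals of the log2 change and cover counting error alone.

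Subunit transcripts were abundant in all 4 libraries, and Atp5b of the ATP synthase had the highest level. Per kilobase of transcript, the median level of the 85 genes was 97.2 CPM in E7.5 wild type, 77.3 in E8.5 wild type, 75.1 in KO1 and 76.6 in KO2. Complex V had a median of 197 CPM per kilobase in E7.5 wild type and 148 in E8.5 wild type, against 171 and 149 for complex IV, 122 and 96.1 for complex III, 92.0 and 78.3 for complex II and 80.8 and 59.8 for complex I. The medians of complexes IV and V were thus nearly the same in E8.5 wild type. Atp5b, the catalytic beta subunit, was highest of all, at 1029 CPM per kilobase in E7.5 wild type, 709 in E8.5 wild type, 722 in KO1 and 749 in KO2. Atp5a1, the alpha subunit, followed in E7.5 wild type at 509 CPM per kilobase, and Atp5g3, which encodes the same c-ring protein as Atp5g1 and Atp5g2, had 493. In E8.5 wild type this order was Atp5g3 at 392 and Atp5a1 at 383. Per kilobase the other c-ring genes were widely spaced, with Atp5g2 at 143 CPM per kilobase and Atp5g1 at 27.3 in E8.5 wild type. Much of this spacing rests on the transcript length used, the median over each gene's transcripts. It was 731 bases for Atp5g2 and 2655.5 for Atp5g1. Before division by length their levels were 105 and 72.4 CPM. Among complex IV genes Cox4i1, Cox5a and Cox8a stood highest in E8.5 wild type, at 244, 228 and 243 CPM per kilobase. Cycs was at only 21.3 CPM per kilobase in E8.5 wild type, on a transcript of 3123 bases.

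The summed reads of the 85 genes were 144316 in E7.5 wild type, 111742 in E8.5 wild type, 74094 in KO1 and 113449 in KO2. These made up 1.193% of the E7.5 wild type library (95% binomial interval 1.187 to 1.199) and 0.889% of the E8.5 wild type library (0.884 to 0.895). The shares were 0.904% in KO1 (0.897 to 0.910) and 0.945% in KO2 (0.9393 to 0.9502). Both KO libraries thus lay just above E8.5 wild type and below E7.5 wild type on this scale. On the TMM scale KO1 lay below E8.5 wild type instead, with a summed log2 change of -0.04, and KO2 above it, with 0.03. In bulk embryos fewer cells of a type and less RNA per cell cannot be told apart.

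**Figure D1:**
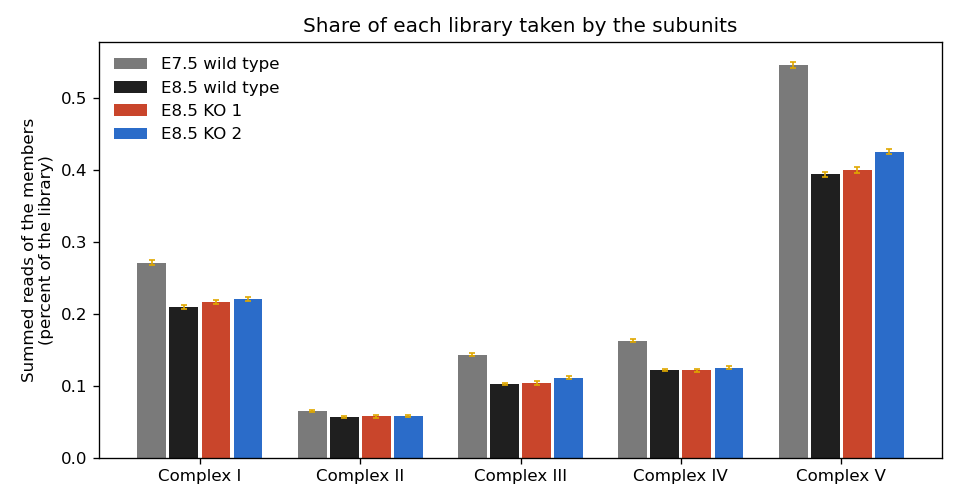
Summed reads of the subunit genes of each complex (y axis, percent of the library's reads) in the 4 libraries, with bars for single libraries and error bars for exact 95% binomial intervals. In each of the 5 complexes the E7.5 wild type bar is highest, and complex V takes 0.546% of the E7.5 wild type library and 0.394% of the E8.5 wild type library.

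The central comparison asked whether loss of Ddx6 altered these genes against the wild type of the same age. Subunit genes of all complexes were near the E8.5 wild type level in both KO libraries. The median log2 change of the 85 genes was -0.04 in KO1 and 0.02 in KO2, beside -0.01 and 0.00 over all 14393 genes with the read minimum. Of the 85 genes, 80 were within 0.5 of E8.5 wild type in KO1 and 82 in KO2. Most of all genes were within 0.5 too: their quartiles were -0.24 and 0.28 in KO1 and -0.24 and 0.32 in KO2. No subunit gene met the fold criterion in both KO libraries, whereas 5.22% of all genes did so in the same direction. Only Ndufa4l2 met it in KO1 (8.28% of all genes), and only Cox4i2 and Cox6b2 in KO2 (15.3%). Against the smaller fold of 0.5 on the log2 scale, Cox4i2, Cox6b2 and Atp5s passed in both KO libraries in the same direction, beside 15.6% of all genes. These shares of all genes include many with few reads, and among genes with a mean of at least 200 reads 1.004% met the fold criterion in both KO libraries. Directions were evenly split: 35 subunit genes were below E8.5 wild type in both KO libraries (37.6% of all genes) and 34 were above it in both (36.3%). Under plain CPM, without TMM, the medians were 0.03 in KO1 and 0.07 in KO2, so neither the sign for KO1 nor the split holds across scalings.

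**Figure D2:**
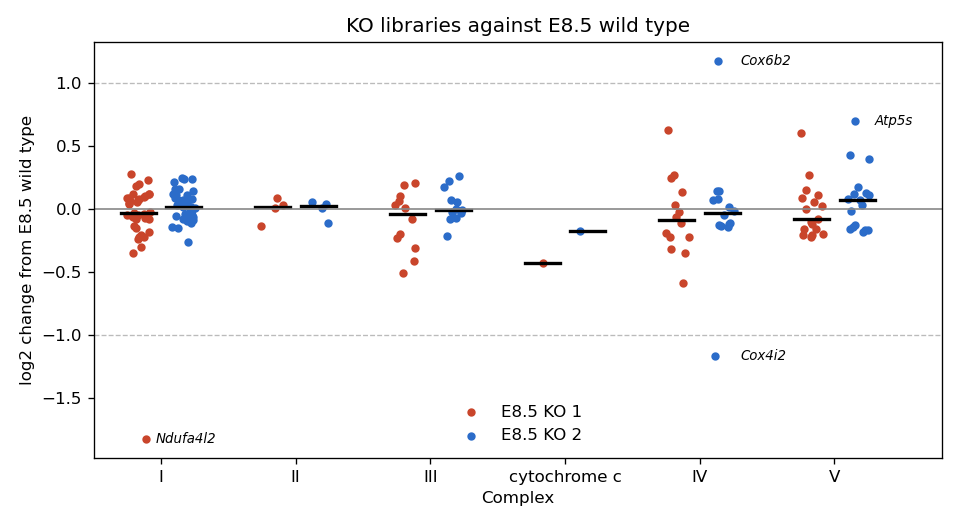
Log2 change from E8.5 wild type (y axis) of each subunit gene in KO 1 (red) and KO 2 (blue) by complex, with black lines at medians and dashed lines at the fold criterion of 1 and -1. Ndufa4l2 in KO 1 and Cox4i2 and Cox6b2 in KO 2 are the 3 points beyond the dashed lines.

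The edgeR quasi-likelihood test called none of the 85 genes for KO against E8.5 wild type at an adjusted p under 0.05, and it called 0% of all genes. No subunit gene had an unadjusted p under 0.05 in it, beside 7.31% of all genes, and the smallest adjusted p by edgeR among the subunit genes was 0.666, for Cox6b2. Set against the stages of wild type together, edgeR likewise called 0% of all genes and gave no subunit gene an unadjusted p under 0.05, with a smallest adjusted p of 0.900 for Uqcr11. DESeq2 called 0.261% of the genes it tested against E8.5 wild type and 0.222% against both stages, none of them a subunit gene. The spread came from the KO pools alone in the first of these edgeR tests and included the stage difference of wild type in the second. Ddx6 itself was 5.52-fold lower in KO1 and 6.09-fold lower in KO2 than in E8.5 wild type. DESeq2 called it, but neither edgeR test did, so a missing edgeR call carries little information here. A p that misses the threshold does not show that a gene is equal in KO and WT.

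In complex I the median log2 change from E8.5 wild type was -0.03 in KO1 and 0.02 in KO2. Ndufs1, which encodes the large iron-sulphur subunit that takes electrons early in the chain, had 1465 reads in E7.5 wild type, 1721 in E8.5 wild type, 1036 in KO1 and 1615 in KO2. Its log2 change from E8.5 wild type was -0.18 in KO1 (counting interval -0.30 to -0.07) and -0.08 in KO2 (-0.18 to 0.02), so it was below E8.5 wild type beyond counting error in KO1 alone. Ndufv1, the NADH-binding subunit, had changes of -0.05 and 0.08. Ndufs8, an iron-sulphur subunit near the quinone site, had the highest mean change of the complex, at 0.28 in KO1 (0.08 to 0.48) and 0.21 in KO2 (0.03 to 0.40), with 469 reads in E8.5 wild type, 389 in KO1 and 540 in KO2. The edgeR test gave Ndufs8 an adjusted p of 0.676.

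The 4 genes of succinate dehydrogenase (complex II), which also works in the citric acid cycle, lay in a narrow range. Their log2 changes from E8.5 wild type ran from -0.13 to 0.09 in KO1 and from -0.11 to 0.06 in KO2. Sdha, the flavoprotein subunit, had 3236 reads in E7.5 wild type, 3023 in E8.5 wild type, 1885 in KO1 and 2785 in KO2, and it gave the lowest change in each KO library (-0.13 and -0.11). Sdhb, the iron-sulphur subunit, had 0.09 and 0.01.

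In complex III the extremes were a pair of small subunits. Uqcr11 had 1109 reads in E7.5 wild type, 791 in E8.5 wild type, 406 in KO1 and 678 in KO2, and log2 changes from E8.5 wild type of -0.41 (-0.59 to -0.24) and -0.21 (-0.36 to -0.06). Uqcrq had 1542, 861, 680 and 967 reads in the same order of libraries, and changes of 0.21 (0.06 to 0.36) and 0.18 (0.05 to 0.31). The counting intervals of Uqcr11 lay below 0 and those of Uqcrq above 0 in both KO libraries. The edgeR adjusted p against E8.5 wild type was 0.668 for Uqcr11 and 0.690 for Uqcrq. Among the core genes Uqcrc1, a core protein, had changes of 0.03 and 0.22, Uqcrfs1, the Rieske iron-sulphur protein, -0.23 and 0.00, and Cyc1, which encodes cytochrome c1, 0.07 and 0.26. Uqcc1, Uqcc2 and Uqcc3, taken in by the symbol rule, are assembly factors rather than subunits, and Uqcc3 had the lowest KO1 value of the complex (-0.51) on 105 reads.

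Cycs, the mobile electron carrier that also triggers apoptosis when released, had 765 reads in E7.5 wild type, 818 in E8.5 wild type, 416 in KO1 and 718 in KO2. Its log2 change from E8.5 wild type was -0.42 in KO1 (-0.60 to -0.25) and -0.18 in KO2 (-0.32 to -0.03), that is 1.34-fold and 1.13-fold lower. The KO libraries differed from each other by 0.25, and the edgeR adjusted p was 0.675.

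In complex IV the broadly expressed genes were within 0.5 of E8.5 wild type, some of them below it in both KO libraries. Cox7b had log2 changes of -0.35 in KO1 and -0.12 in KO2, Cox6c -0.32 and -0.13, and Cox5b -0.22 and -0.14. Cox4i1, the usual form of subunit 4, had 3223 reads in E7.5 wild type, 2263 in E8.5 wild type, 1434 in KO1 and 2217 in KO2, with log2 changes of -0.11 and -0.02 from E8.5 wild type. Cox5a had -0.06 and 0.02, Cox6b1 0.03 and -0.05, Cox7a2 -0.02 and -0.11, and Cox8a 0.25 and 0.07. Cox6a1 had 0.13 and 0.14, with counting intervals above 0 in both KO libraries. Cox7c, which encodes a small membrane subunit, had the opposite sign in the KO libraries, -0.22 in KO1 (-0.37 to -0.08) and 0.14 in KO2 (0.02 to 0.26). Ndufa4, counted here with complex I by its symbol though its product is now placed in complex IV, had -0.22 and -0.07.

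In complex V the catalytic genes were close to E8.5 wild type, but their many reads placed small differences beyond counting error. Atp5a1 had 14951 reads in E7.5 wild type, 11644 in E8.5 wild type, 7348 in KO1 and 12514 in KO2. Its log2 change from E8.5 wild type had opposite signs, -0.11 in KO1 (-0.16 to -0.07) and 0.12 in KO2 (0.08 to 0.15). Atp5b had 23455, 16691, 11624 and 17498 reads in the same order, with changes of 0.03 and 0.08, the latter with an interval of 0.05 to 0.11. Atp5h, which encodes a stalk subunit, had the lowest mean change of the complex, -0.22 (-0.34 to -0.10) and -0.16 (-0.26 to -0.05). The c-ring genes had -0.16 and -0.19 (Atp5g1), -0.10 and -0.01 (Atp5g2), and 0.00 and 0.03 (Atp5g3). Atp5l, a membrane subunit, was above E8.5 wild type in KO2 (0.40, interval 0.22 to 0.59) and within counting error of it in KO1 (0.15, -0.06 to 0.36).

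Across all complexes the counting intervals lay below 0 in both KO libraries for 11 genes, beside 15.8% of all genes. They were Cox4i2, Cox5b, Cox7b, Uqcr11, Sdha, Cycs, Atp5f1, Atp5g1, Atp5h, Atp5j and Atp5j2, so 5 of the 11 were ATP synthase genes and none was of complex I. They lay above 0 in both for 7 genes, beside 13.7% of all genes, among them Ndufs8, Uqcrq, Cox6a1, Cox6b2, Atp5s and Atp5sl. The shares of subunit genes, 12.9% and 8.24%, were thus under those of all genes in both directions. The 11 and 7 share the E8.5 wild type library, so an error in that library moves both KO values alike.

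The genes that met a fold threshold in a KO library against E8.5 wild type were tissue-restricted forms or accessory genes with few reads. Ndufa4l2 (chromosome 10, 127514967 to 127517154, plus strand, GRCm38), a paralogue of Ndufa4 known as a hypoxia-induced gene, had 135 reads in E7.5 wild type, 68 in E8.5 wild type, 12 in KO1 and 71 in KO2. KO1 stood apart, 3.55-fold lower than E8.5 wild type (log2 change -1.83, interval -2.97 to -1.06), while KO2 was level with E8.5 wild type at 0.07 (-0.43 to 0.58). The KO2 level was 3.74-fold that of KO1, and Ndufa4l2 was the only subunit gene past the fold criterion between the KO libraries (10.9% of all genes).

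Cox4i2 (chromosome 2, 152754173 to 152765037, plus strand) encodes the second form of subunit 4, known from lung and from low oxygen. It had 46 reads in E7.5 wild type, 89 in E8.5 wild type, 40 in KO1 and 38 in KO2, so that E8.5 wild type was highest and the other 3 libraries lay between 3.12 and 4.76 CPM. Its log2 change from E8.5 wild type was -0.59 in KO1 (-1.18 to -0.05) and -1.17 in KO2 (-1.80 to -0.65), and the edgeR adjusted p was 0.672. Markers of cardiac muscle, fixed as a list of 14 genes of which 13 passed the read minimum, had summed reads of 468 in E7.5 wild type, 4153 in E8.5 wild type, 998 in KO1 and 985 in KO2. Those of primitive erythroid cells (6 genes) had 306, 2997, 20 and 25, and Hba-x, Hbb-bh1 and Hbb-y were at 3 reads or fewer in both KO libraries. Scaled to CPM, the cardiac sums were 39.3, 338, 119 and 80.8 and the erythroid sums 25.7, 244, 2.38 and 2.05. E8.5 wild type had the highest sum of both lists, as it did for Cox4i2, but single markers differed: Gata1 (205 reads) and Gfi1b (66 reads) were highest in E7.5 wild type and Tnni1 (253 reads) in KO1. Visceral endoderm markers (8 genes) also summed highest in E8.5 wild type, with 6920, 7167, 4212 and 4010 CPM in the same order. However, 6 of these 8 were lower in E8.5 wild type than in E7.5 wild type. The part of these cells in the Cox4i2 level was not tested.

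Cox6b2 (chromosome 7, 4751792 to 4753094, minus strand), known as the testis form of subunit 6b, had 73 reads in E7.5 wild type, 55 in E8.5 wild type, 59 in KO1 and 126 in KO2. Its log2 change from E8.5 wild type was 0.63 in KO1 (0.10 to 1.21) and 1.18 in KO2 (0.74 to 1.69). E7.5 wild type had 6.14 CPM, KO1 7.03 and KO2 10.3, so KO2 was highest. Atp5s (chromosome 12, 69724950 to 69744660, plus strand), an accessory gene of the ATP synthase by name, had 58, 55, 58 and 90 reads in the order E7.5 wild type, E8.5 wild type, KO1 and KO2. Both KO libraries, at 6.91 and 7.39 CPM, were above both WT libraries, at 4.88 and 4.48. The edgeR adjusted p against E8.5 wild type was 0.666 for Cox6b2 and 0.679 for Atp5s. Trophoblast giant cell markers, a list of 7 genes of which 5 passed the read minimum, summed to 2933, 2457, 3782 and 10955 reads in the same order of libraries. Prl3d1 had 4156 reads in KO2 and 27 or fewer in each of the others. Hand1, with 2570, 2229, 3544 and 4028 reads, had a lower level in KO2 than in KO1, by a log2 change of -0.35. Uterine natural killer markers (8 genes) summed to 38, 3, 30 and 280 reads and maternal decidua markers (5 genes) to 2684, 702, 655 and 2674. Scaled to CPM, the trophoblast sums were 247, 200, 450 and 899. The natural killer sums were 3.19, 0.244, 3.57 and 23.0 CPM and the decidua sums 226, 57.1, 78.0 and 219. KO2 thus had the highest sum for trophoblast and uterine natural killer markers, as it did for Cox6b2, and the part of these cells was not tested.

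**Figure D3:**
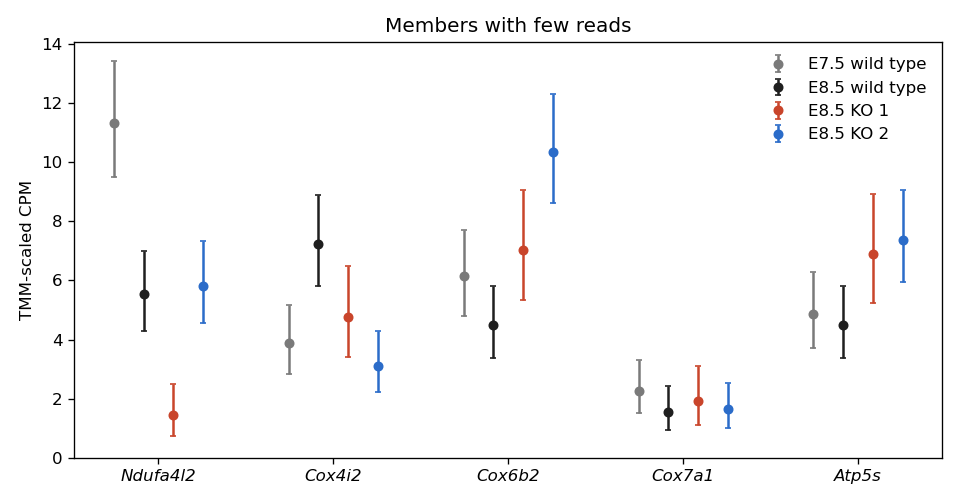
TMM-scaled CPM (y axis) of 5 subunit genes with few reads in the 4 libraries, with exact 95% Poisson counting intervals as error bars. Ndufa4l2 is lowest in KO 1 at 1.43 CPM, Cox4i2 is highest in E8.5 wild type at 7.24, and Cox6b2 is highest in KO 2 at 10.3.

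Other tissue forms were almost silent. Cox7a1, the heart and skeletal muscle form of subunit 7a, was the subunit gene with the fewest reads that passed the minimum, with 27 in E7.5 wild type, 19 in E8.5 wild type, 16 in KO1 and 20 in KO2, while its partner Cox7a2 had 1520, 1206, 812 and 1109. Just outside the minimum, Cox7b2 had 3 reads in E7.5 wild type, 1 in E8.5 wild type and 0 in each KO library, against 1422 in E8.5 wild type for Cox7b. The muscle forms Cox6a2 and Cox8b and the testis form Cox8c had 0 reads in all 4 libraries. The related Cox7a2l, known as a factor of respiratory supercomplexes, was broadly expressed, with 873 reads in E8.5 wild type and log2 changes of -0.19 and -0.13 in KO1 and KO2. A count of 0 allows up to 3 reads per library, so Cox6a2 and Cox8b were below detection also in E8.5 wild type, where cardiac markers had their highest sum. Ndufs5, a structural subunit of complex I, was also listed at 0 in every library. Reads that fit near-identical copies are uncertain in such a table, and whether this applies to Ndufs5 was not tested.

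The comparison of the WT stages asked how these genes differ between E7.5 and E8.5 without the mutation. Nearly all were lower in the E8.5 wild type library. The log2 change was below 0 for 80 of the 85 genes, beside 50.9% of all genes, and below -0.5 for 30 of them, beside 21.4%. The median was -0.38 (quartiles -0.55 and -0.19), beside -0.02 over all genes. Counting intervals lay below 0 for 68 genes (33.4% of all genes, and 39.8% of those with a mean of at least 200 reads). They lay above 0 for Ndufs1, Cox7c and Cox4i2. Under DESeq2 size factors and under plain CPM the same number of genes, 80, was below 0, with medians of -0.41 and -0.39.

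The median of this difference varied by complex, on unequal numbers of genes and before any centring on transcript length. The median log2 change from E7.5 wild type to E8.5 wild type was -0.37 in complex I, -0.23 in complex II, -0.46 in complex III, -0.42 in complex IV and -0.41 in complex V, and Cycs had 0.05. Atp5sl and Ndufa4l2 alone met the fold criterion (20.0% of all genes). Atp5sl (chromosome 7, 25619414 to 25625551, plus strand), whose product is now known as an assembly factor of complex I, had 699 reads in E7.5 wild type, 344 in E8.5 wild type, 284 in KO1 and 461 in KO2. It was 2.09-fold lower in E8.5 wild type than in E7.5 wild type (interval of the log2 change -1.26 to -0.88). Further large differences on many reads were those of Ndufs8 (log2 change -0.96, -1.12 to -0.80), Uqcrq (-0.89, -1.01 to -0.77) and Atp5d, the delta subunit of the ATP synthase, which had 3254 reads in E7.5 wild type and 1941 in E8.5 wild type (-0.79, -0.87 to -0.71). In the edgeR fit of this difference the single WT libraries are assumed to vary like the KO pools. After adjustment edgeR called 0% of all genes, with a smallest adjusted p of 0.173 among the subunit genes, for Atp5d.

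The KO libraries were also low beside E7.5 wild type. The median log2 change from E7.5 wild type was -0.43 in KO1 and -0.38 in KO2, beside 0.02 and 0.07 over all genes. Centred on other genes of similar transcript length, the medians were -0.08 in KO1, with 57 of the 85 genes below 0, and -0.12 in KO2, with 69 below 0. Both KO libraries were below -0.5 for 18 genes (11.0% of all genes), and counting intervals lay below 0 in both for 68 (23.6%). Among genes with a mean of at least 200 reads, the share with both intervals below 0 was 32.6%. Ndufa4l2 met the fold criterion in KO1 (20.6% of all genes) and no subunit gene met it in KO2 (14.9%). The edgeR test of KO against E7.5 wild type rests on a single E7.5 wild type library and gave no call after adjustment. All 3 libraries of E8.5 embryos were below E7.5 wild type for 76 of the 85 genes, beside 33.6% of all genes. They were all above it for Ndufs1 and Ndufc2. The mean of the KO libraries was nearer to E8.5 wild type than to E7.5 wild type for 78 of the 85 genes, beside 64.6% of all genes. These counts all share the E7.5 wild type library, so anything that sets this library apart enters each of them.

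**Figure D4:**
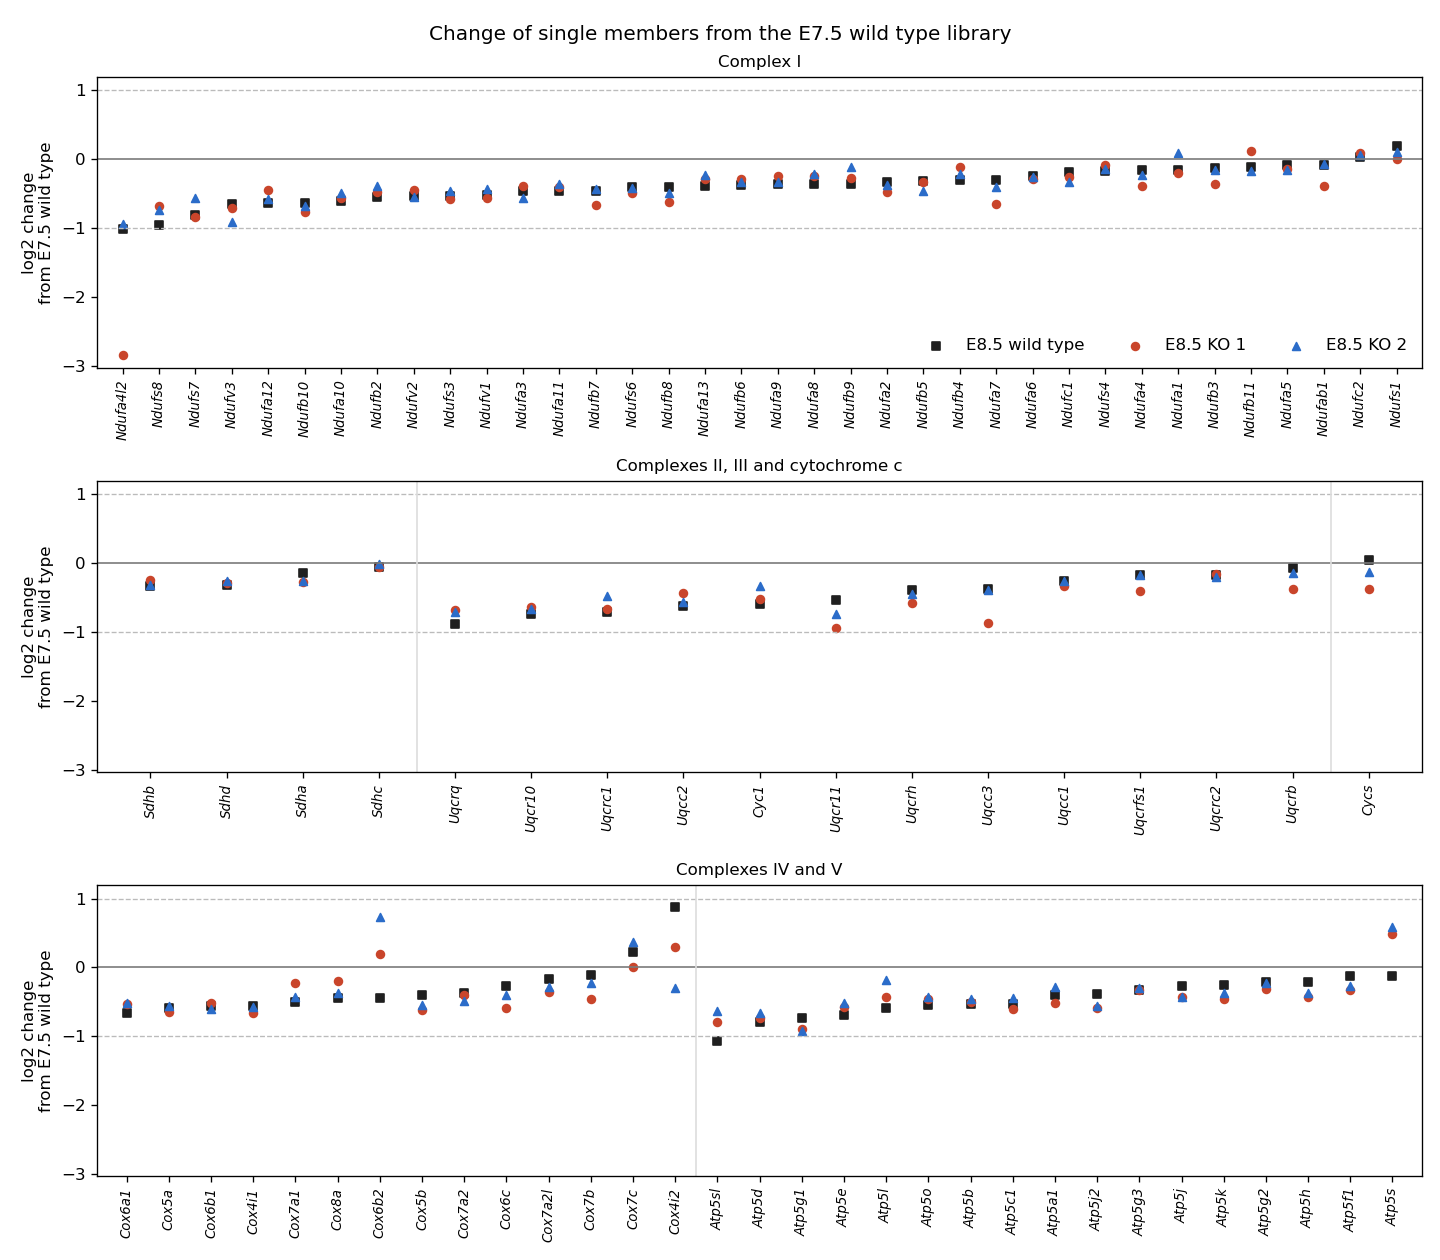
Log2 change of the single subunit genes reported here from E7.5 wild type (y axis) in E8.5 wild type (black squares), KO 1 (red circles) and KO 2 (blue triangles), grouped by complex and sorted by the E8.5 wild type value, with dashed lines at 1 and -1. For most genes all 3 symbols lie below 0, and the symbols of a gene mostly lie close together, with Ndufa4l2, Cox6b2 and Cox4i2 most spread.

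Transcript length moved with the stage difference. Subunit transcripts are short, with a median of 838 bases against 2947 over all genes, and 52 of the 85 were under 1000 bases. Among the other genes the median log2 change from E7.5 wild type to E8.5 wild type was -0.24 for transcripts under 600 bases, -0.37 from 800 to under 1000 bases, -0.23 from 1500 to under 2500 bases and 0.39 for 4000 bases or more. Subunit genes had -0.43, -0.41 and -0.53 in the first 3 of these bins, and none was in the last. After each gene was centred on the other genes of its length bin, the subunit median was -0.08, with 58 of the 85 genes below 0, in place of -0.38 and 80. The median of complex III was then -0.28, with 9 of 12 genes below 0, and that of complex I -0.07, with 25 of 37. GC content was graded too, from 0.47 in the bin with the lowest GC content to -0.37 in that with the highest. Centred on length and GC bins together, which was possible for 78 genes, the subunit median was -0.14, with 60 below 0. By complex it was then -0.10 in complex I, -0.09 in complex II, -0.21 in complex III, -0.19 in complex IV and -0.11 in complex V. Other transcripts of the same lengths were thus lower in E8.5 wild type as well, and what sets the gradient was not tested. Against E8.5 wild type the mean of the KO libraries had a flatter length profile, with medians of other genes between -0.12 and 0.08 over the bins. The length-centred subunit medians were 0.00 in KO1 and 0.00 in KO2. GC content was graded for this mean too, with medians of other genes from -0.12 in the lowest GC bin to 0.14 in the highest. Centred on length and GC together, the subunit medians were 0.03 in KO1 and 0.00 in KO2.

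**Figure D5:**
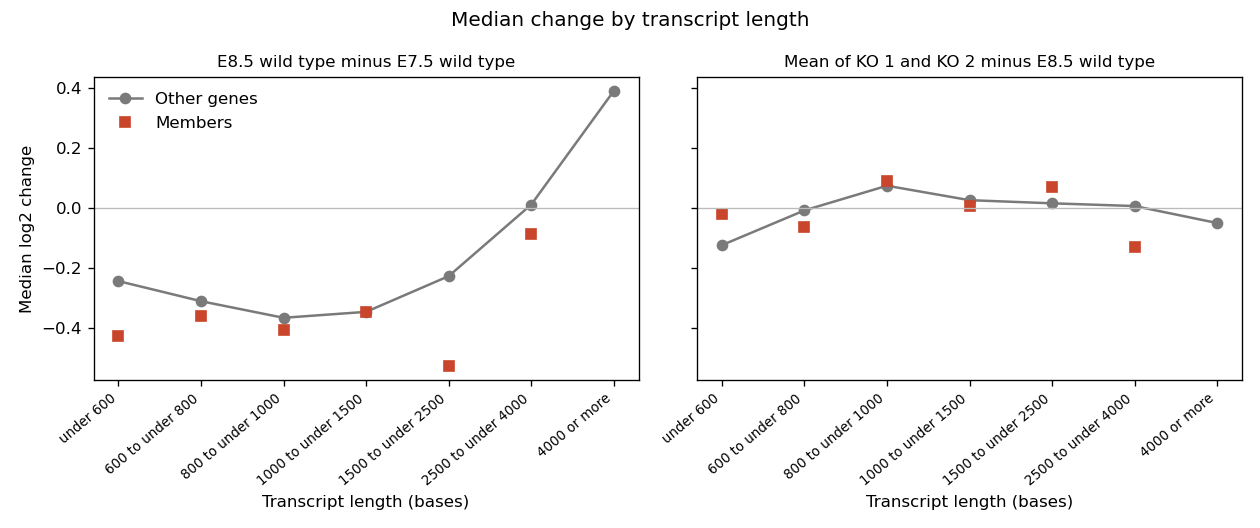
Median log2 change (y axis) by transcript length bin (x axis, bases) for subunit genes (red squares) and other genes (grey circles), from E7.5 wild type to E8.5 wild type on the left and from E8.5 wild type to the mean of the KO libraries on the right. On the left other genes run from -0.24 in the shortest bin to 0.39 in the longest, and on the right they stay between -0.12 and 0.08.

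Genes that work beside the respiratory chain were compared as lists. None of their counts carries a test. Of 43 assembly factors of the complexes, 41 passed the read minimum, with a median log2 change of -0.15 from E7.5 wild type to E8.5 wild type and of -0.08 in KO1 and 0.00 in KO2 from E8.5 wild type. The 17 genes of the citric acid cycle and pyruvate dehydrogenase had -0.20, -0.10 and 0.04 in that order. The 21 carriers, porins and import proteins had -0.16, -0.21 and -0.10, and 16 of them were below E8.5 wild type in KO2 and 17 in KO1. Of all 14393 genes, 7215 were below it in KO2 and 7331 in KO1. The 77 proteins of the mitochondrial ribosome, which makes the subunits encoded in mitochondrial DNA, had -0.43, -0.16 and 0.04. The 80 cytosolic ribosomal protein genes, which are short and abundant as well, had -0.32, -0.30 and -0.14, so they lay further below E8.5 wild type in both KO libraries than the subunit genes did. The 5 genes for subunits or regulators with symbols outside the rule had -0.37, -0.25 and -0.06. In these lists only Rpl39l (higher) and Rpl29 (lower), both of the cytosolic ribosome, met the fold criterion in both KO libraries against E8.5 wild type. Both belong to families with many pseudogene copies, so their counts are uncertain.

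Regulators of mitochondrial biogenesis did not share one direction. Of the 12 with the read minimum 6 were above and 6 below E7.5 wild type in E8.5 wild type, and the median log2 change from E8.5 wild type was -0.22 in KO1 and -0.09 in KO2. Nrf1, a transcription factor of respiratory genes, had 878 reads in E7.5 wild type, 896 in E8.5 wild type, 505 in KO1 and 740 in KO2, log2 changes of -0.28 and -0.26 from E8.5 wild type. Tfam, which packages and transcribes mitochondrial DNA, had 1163, 1310, 662 and 998 reads, with changes of -0.43 and -0.38. Gabpa, an ETS factor, had 729, 1359, 760 and 1223 reads, and differed more between the stages (0.85) than between KO and E8.5 wild type (-0.29 and -0.14). Other regulators were above E8.5 wild type in both KO libraries: Ppargc1b (0.42 and 0.36), Polg (0.25 and 0.14) and Esrra (0.11 and 0.26). In each KO library 8 of the 12 were below E8.5 wild type and 4 above it. Ppargc1a alone met the fold criterion between the WT stages, with 1 read in E7.5 wild type and 21 in E8.5 wild type. None of the 12 met the fold criterion in both KO libraries.

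Promoter sequences are shown as a description, with a short motif found in the promoters of some subunit genes. Whether it bears on the lower levels in the E8.5 libraries was not tested. RefSeq promoter windows on GRCm38.p6, from 250 bases before to 50 after a start, were matched for 68 of the 85 genes and for 10875 of all genes with the read minimum. Both strands were searched for 5 short motifs. The core GCATGCGC of the NRF1 site was in windows of 11 subunit genes (16.2%) and of 5.77% of all genes. The YY1 core AAGATGGC was in 10 (14.7%, all genes 4.88%), the ETS core CCGGAAG in 16 (23.5%, 18.4%), the ERR core TCAAGGTCA in 2 (2.94%, 0.303%) and the GC box GGGCGG in 30 (44.1%, 68.7%). One gene of each complex with the NRF1 core, that with the most reads, is shown 5′ to 3′ on the gene's strand. Capitals mark the first match to GCATGCGC or its reverse complement GCGCATGC, which can overlap the other form:
Ndufa8 (complex I, chr2:36049313-36049372, minus strand): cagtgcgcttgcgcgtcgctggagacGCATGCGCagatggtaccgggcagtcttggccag
Sdhb (complex II, chr4:140961191-140961250, plus strand): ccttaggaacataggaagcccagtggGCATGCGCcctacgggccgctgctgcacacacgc
Uqcrc1 (complex III, chr9:108936652-108936697, plus strand): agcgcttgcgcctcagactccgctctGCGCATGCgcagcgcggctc
Cycs (cytochrome c, chr6:50566596-50566655, minus strand): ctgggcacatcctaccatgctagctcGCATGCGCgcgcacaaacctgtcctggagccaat
Cox6a1 (complex IV, chr5:115349087-115349146, minus strand): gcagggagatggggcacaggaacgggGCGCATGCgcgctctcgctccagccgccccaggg
Atp5g2 (complex V, chr15:102671056-102671115, minus strand): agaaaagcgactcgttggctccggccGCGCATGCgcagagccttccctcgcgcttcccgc

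The motif ended 46 bases before the start in Sdhb, 52 in Cycs, 34 in Atp5g2 and 154 in Cox6a1, reached the start in Ndufa8, and began at base 31 of the transcribed part in Uqcrc1. The other genes with it were Atp5k, Atp5l, Ndufa11, Ndufa6 and Uqcr11. Levels did not separate by the motif. The median log2 change from E7.5 wild type to E8.5 wild type was -0.36 for the genes with the NRF1 core and -0.40 for those without it. From E8.5 wild type it was 0.03 with and -0.05 without the motif in KO1, and 0.01 and 0.02 in KO2. A match to these letters is a description and not a bound site.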

How the data were processed

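The authors deposited raw read counts per gene for 4 poly(A) RNA-seq libraries made with a stranded kit. Per the study's methods and the submitters' processing notes, reads were trimmed with Cutadapt 2.8, checked with FastQC 0.11.7, aligned to mm10 with HISAT2 2.1.0, sorted with SAMtools 1.9 and counted over exons with strand by featureCounts 2.0.0.

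Counts were scaled by TMM over the 24421 genes in edgeR 4.0.16 (R 4.3.3), and the 14393 genes with at least 10 reads in a library were kept. Tests were two-sided edgeR quasi-likelihood F-tests with Benjamini-Hochberg adjustment over all genes kept, in 3 groups (E7.5 wild type, E8.5 wild type, KO) or in 2 (WT, KO), and DESeq2 1.42.0 as the alternative. Scripts were tested on simulated data. Transcript lengths, GC content and positions came from GENCODE M21 and promoters from RefSeq. Intervals cover counting error only, since the reads carry no molecular identifiers. The subunit genes and lists were chosen with earlier results of these data known. Genes named were those past the fold criterion in any library pair, the highest and lowest mean KO change of each complex among genes with a mean of at least 50 reads, preset core subunits and preset isoform families. Ndufs5, Ndufc2, Ndufa8, Uqcc1, Uqcc2, Uqcc3, Cox5b, Cox6c, Cox7c, Atp5d, Atp5f1, Atp5j, Atp5j2, Atp5l and the regulators were named after their values were seen, as were the motifs. The contrasts with E7.5 wild type by edgeR and the centring by length and GC were also added then. The values of a single subunit gene enter the counts and medians but are not reported here.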

Additional observations from a re-analysis of the deposited data

How the results depend on the processing

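The median log2 change of the subunit genes for the mean of KO1 and KO2 against E8.5 wild type was -0.01, and under plain CPM it was 0.049. Against E7.5 wild type it was -0.40, with -0.35 under plain CPM, -0.10 when centred on other genes of the same transcript-length bin and -0.16 on the same length and GC bin. For E8.5 wild type against E7.5 wild type it was -0.38, with -0.41 under DESeq2 size factors, -0.082 centred by length and -0.14 by length and GC. The number of genes past the fold criterion in both KO libraries, 0, became 3 at a threshold of 0.5 and ranged from 1 to 2 when a KO library was left out. Between KO2 and KO1 it was 1, with 3 at 0.5 and 0 at 2. With a KO library left out, the first count covers the other alone, with Ndufa4l2 in KO1 or Cox4i2 and Cox6b2 in KO2. The cause of the shifts between scalings and centrings was not tested. Of 223 values of single genes under planned settings, 13 moved by more than the spread between the KO libraries and 210 moved by less. The 13 were under plain CPM or, for Cox6a1, also under DESeq2 size factors. Sdhb, for example, went from a mean log2 change against E8.5 wild type of 0.05 to 0.11 under plain CPM. Leaving out a KO library always moves the mean by less than this spread, so such settings could not enter the 13. Ndufa4l2 counted among the 210, though its mean change of -0.88 became 0.07 without KO1 and -1.83 without KO2. For KO against E8.5 wild type no subunit gene was called by a test or met the fold criterion in both KO libraries, so no call could be reversed. The sign of the median against E8.5 wild type did change under plain CPM. No paired analysis was possible because each WT stage has 1 library and the labels give no pairing with the KO libraries.

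The main limits are that each WT stage is 1 library and that the KO libraries are pools of unequal morphology. The E7.5 wild type library differs from all others along transcript length and GC content, and the KO libraries differ from E8.5 wild type along GC content. Summed reads of trophoblast giant cell and maternal decidua markers also differed between the libraries, and the part of these tissues in the contrasts was not tested. Depth limits the tissue forms most, and for Cox4i2 in KO1 the counting interval of the log2 change ran from -1.18 to -0.05. Counts of short genes with processed pseudogenes, which are common in these families, depend on how reads with several matches were handled.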
